A study of Cichorium intybus with 5 samples.

Results

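The probes described here were induced by somatic embryogenesis (SE) medium in the embryogenic chicory genotype K59 and stayed within limits in the non-embryogenic genotype C15. They were chosen from the deposited log2 ratios themselves, with a ratio of at least 1 (2-fold) in K59 d4 vs. K59 d0 and a ratio strictly between -1 and 1 in C15 d4 vs. C15 d0. There were 131 of them among the 811 probes with both values (16.2%), out of 2112 probes on the array. A further 6 probes met both limits but were set aside by the rule, and their values are given near the end. Because the induction ratios chose the members, those ratios are a description and test nothing, and passing a limit in K59 but not in C15 does not test the difference between the genotypes.

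The explants were pieces of leaf cut from plantlets grown in vitro for 2 months, with 12 plants per replica. K59 is a single genotype able to form somatic embryos, and C15, a single genotype obtained by selfing from K59, is not. RNA was compared on 2-colour cDNA arrays in 5 comparisons. Each genotype was compared at day 4 in SE induction medium (35°C, darkness, orbital shaking) with its own uncultured explants (d0), and at day 4 with 250 µM β-D-glucosyl Yariv reagent (Y+) with day 4 without it (Y-). The last comparison set uncultured K59 against uncultured C15. Excision, medium, darkness, heat and shaking all separate d4 from d0 and cannot be told apart. The deposited design states 3 biological replicates and, except for the d0 comparison, 6 hybridizations per condition, but 1 value per probe and comparison was deposited. No spread between replicates can therefore be given, no difference below was tested, and the small number of arrays limits the precision. The clones were selected beforehand from a subtracted cDNA library, so the shares given for all probes are shares of a chosen set and not of the chicory transcriptome.

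In somatic embryogenesis, differentiated cells re-enter the cell cycle and, under inductive culture, organise into embryos without fertilisation. Cells that divide draw in general on DNA replication, protein quality control, respiration and remodelling of the wall. The part of these in chicory cell reactivation was not tested here. Arabinogalactan-proteins are heavily glycosylated proteins of the plant cell surface with roles in growth and embryogenesis, and β-Glc Y binds and precipitates them. Ratios on this array compare 2 RNA samples at 1 probe, so they are differences and not levels, and one probe's abundance cannot be set against another's. For the same reason the leaf identity of the explants cannot be checked from marker levels. Among the 6 probes of photosynthesis, the programme that marks green leaf, none was a member, 5 were at or below -1 in K59, and the median log2 ratio was -3.24 for K59 and -1.92 for C15.

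In K59, 17.3% of the probes with a value were at 1 or above after induction, and 23.4% were at -1 or below. In C15, 1.54% were at 1 or above and 8.3% were at -1 or below. The median of the 131 members was 1.35 in K59 (quartiles 1.11 and 1.77, range 1 to 5.22) and 0.24 in C15 (quartiles 0.14 and 0.40, range -0.99 to 0.78). The 680 other probes had medians of -0.11 in K59 and -0.05 in C15. Most members were modestly induced, with 76 below 1.5 and 19 at 2 or above in K59. Their C15 ratios were mostly small and positive, since 93 lay between 0 and 0.5, 20 at 0.5 or above, and 18 below 0. K59 exceeded C15 by a median of 1.22 on the log2 scale, with a range of 0.29 to 4.98. In 81 members this gap was at least 1, and in 3 it was under 0.5.

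**Figure D1:**
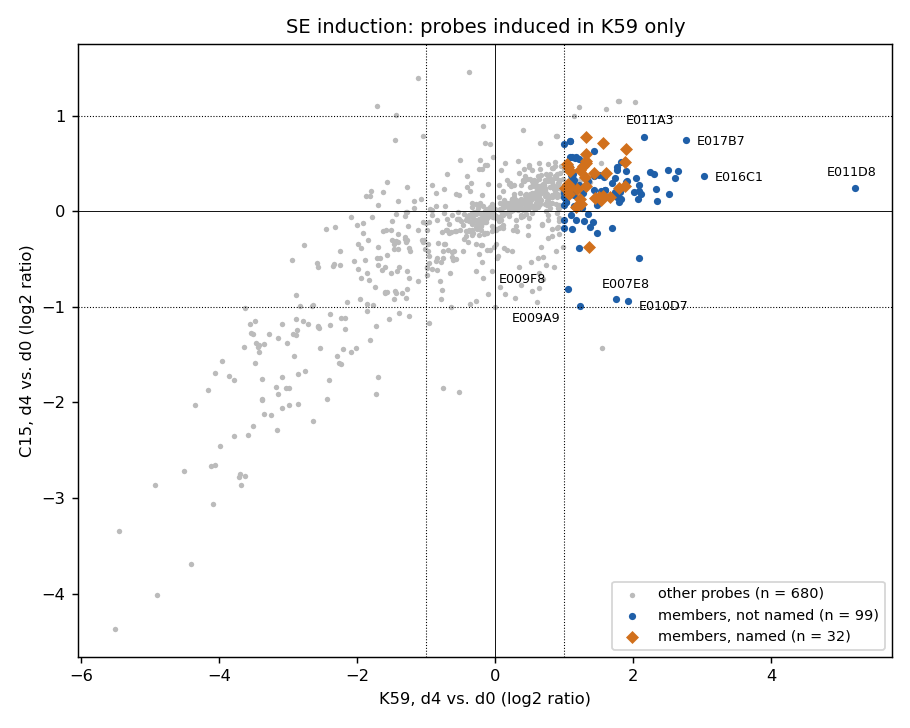
Log2 ratio in C15 d4 vs. d0 (y axis) against log2 ratio in K59 d4 vs. d0 (x axis) for 811 probes, with members in blue (not named) and orange (named), other probes in grey and dotted lines at the limits of 1 and -1. Members lie right of 1 in K59 and between -0.99 and 0.78 in C15, and the probe E011D8 stands apart at 5.22 in K59.

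The study's clone annotation named 135 probes on the array, and 32 members were among them. The annotation lists genes that the study selected on these same samples, so the counts by function below are not independent evidence of a direction. Of the 130 named probes with a K59 value, 41 were at 1 or above and 65 at -1 or below. The named probes were grouped for this report into 12 lists of function. Members fell in 9 lists and were absent from those of photosynthesis, RNA processing, and ribosome and translation. The named members were less spread than the others, with a K59 median of 1.31 (1.02 to 1.90), against 1.43 (1 to 5.22) in the 99 unnamed members. None of the 20 highest members in K59 had a name.

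**Figure D2:**
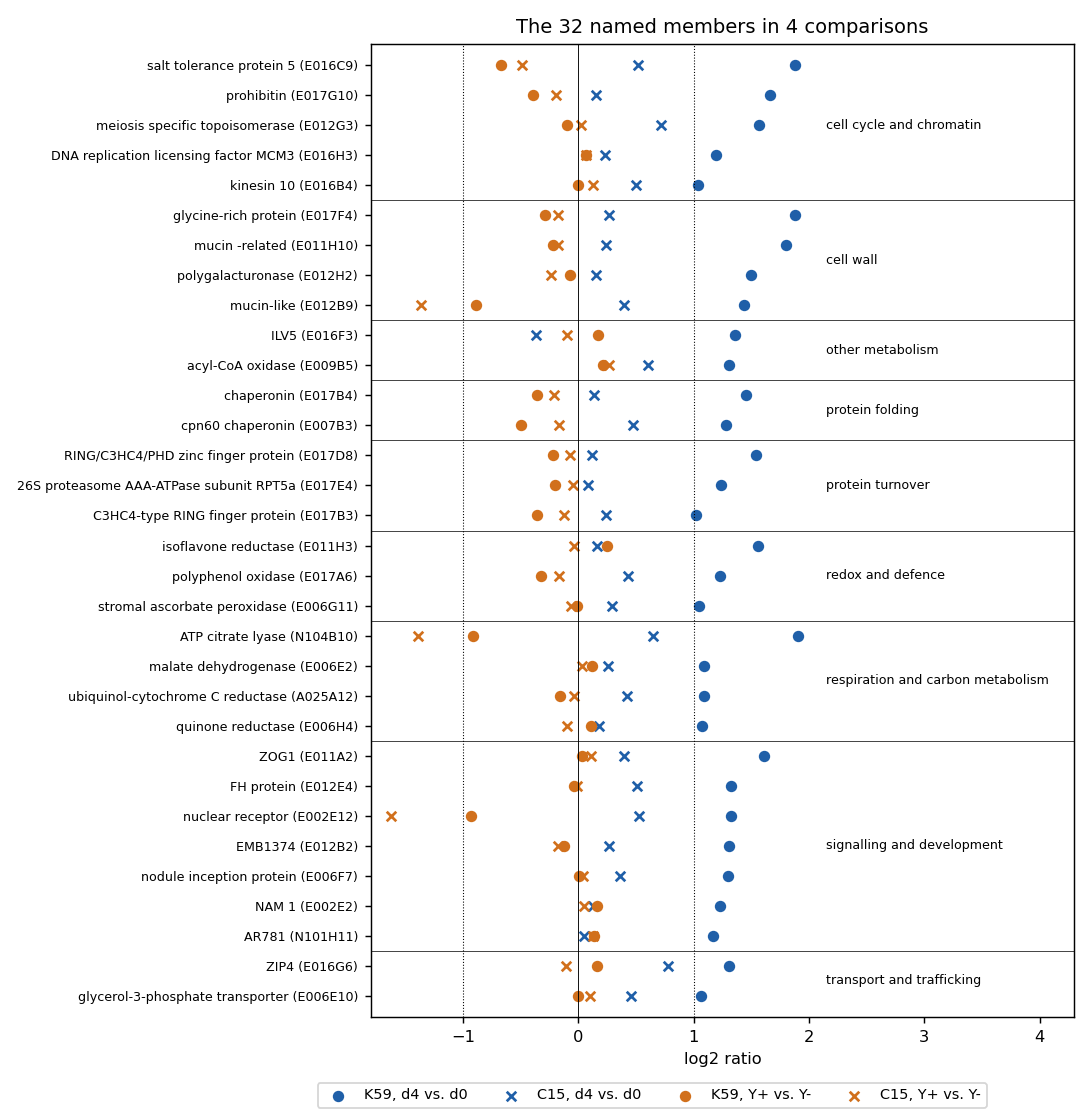
Log2 ratios (x axis) of the 32 named members, 1 line per gene grouped by list of function, in K59 (circles) and C15 (crosses) for d4 vs. d0 (blue) and Y+ vs. Y- (orange). K59 induction values run from 1.02 to 1.90 and C15 values from -0.37 to 0.78. The C15 β-Glc Y values of 3 genes (-1.62 to -1.36) lie far to the left of the rest. Their K59 values (-0.93 to -0.89) are the lowest, but the next gene follows at -0.67.

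Among the 16 signalling and development probes, 15 had a K59 value, of which 8 were at 1 or above and 5 at -1 or below. Of those 8, 7 were members. The member with the highest ratio was ZOG1, a zeatin O-glucosyltransferase that stores cytokinin as a sugar conjugate (E011A2), at 1.61 in K59 and 0.40 in C15. Its ratios with β-Glc Y were 0.03 in K59 and 0.11 in C15. A nodule inception protein, named for a legume transcription factor needed to start root nodules (E006F7), had 1.30 in K59 and 0.36 in C15, and its β-Glc Y ratios were 0.01 in K59 and 0.04 in C15. NAM 1, from the NAC family of transcription factors that set organ boundaries in Petunia (E002E2), had 1.23 in K59 and 0.13 in C15. EMB1374, which carries the name of an Arabidopsis embryo-defective gene (E012B2), had 1.31 in K59 and 0.27 in C15. All of these had β-Glc Y ratios between -0.18 and 0.16 in both genotypes. With plate medians subtracted, NAM 1 (0.96), the nodule inception protein (0.82) and EMB1374 (0.82) fell below the K59 limit, and ZOG1 (1.06) did not.

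The remaining signalling members were an FH protein (E012E4), with 1.32 in K59 and 0.51 in C15, and AR781 (N101H11), with 1.17 in K59 and 0.05 in C15. The FH protein had β-Glc Y ratios of -0.04 in K59 and -0.01 in C15, and AR781 had 0.14 and 0.13. With plate medians subtracted the FH protein fell to 0.83 in K59, below the limit, and AR781 was at 1.30. The probe annotated as a nuclear receptor (E002E12) had a similar induction ratio, 1.32 in K59 and 0.53 in C15, but stood apart with β-Glc Y, as described below.

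The cell cycle and chromatin list held 9 probes, 6 at 1 or above in K59 and 3 at -1 or below, and 5 were members. MCM3, a subunit of the helicase that opens DNA for replication (E016H3), had 1.19 in K59 and 0.23 in C15. The probe named meiosis specific topoisomerase (E012G3), whose Arabidopsis match AT5G02820 encodes a topoisomerase subunit used in endoreduplication, had 1.57 in K59 and 0.72 in C15. Kinesin 10, of the microtubule motor family (E016B4), had 1.04 in K59 and 0.50 in C15. These 3 genes had β-Glc Y ratios between -0.10 and 0.13 in both genotypes, so the probes for replication, topology and motor functions lay near 0 there. Salt tolerance protein 5 (E016C9), matched to the Arabidopsis NudC-domain gene AT5G53400, reached 1.88 in K59 and 0.52 in C15, with -0.67 in K59 Y+ and -0.49 in C15 Y+ relative to Y-. Prohibitin, a scaffold protein of the inner mitochondrial membrane (E017G10), had 1.66 in K59 and 0.15 in C15, and its β-Glc Y ratios were -0.39 for K59 and -0.19 for C15. Salt tolerance protein 5 and prohibitin had the highest K59 ratios of the list, but neither description is of a cell cycle or chromatin function. The count of 5 members is therefore one for the list as grouped here.

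Of the 17 cell wall probes, 16 had a K59 value, of which 5 were at 1 or above, 5 between the limits and 6 at -1 or below. The 4 members were a glycine-rich protein, a class that includes structural wall proteins (E017F4), a mucin-related protein (E011H10), a polygalacturonase, which cuts pectin (E012H2), and a mucin-like protein (E012B9). Their K59 ratios were 1.88, 1.8, 1.5 and 1.44 in that order, and their C15 ratios were 0.27, 0.24, 0.15 and 0.40. The glycine-rich, mucin-related and polygalacturonase probes had β-Glc Y ratios between -0.29 and -0.07 in both genotypes. Expansin, which loosens walls (E017D6), pectinesterase (E007B4) and a heparanase-like protein (E011F4) stayed under the K59 limit at 0.81, 0.89 and 0.92. Their C15 ratios were 0.34, 0.79 and 0.31. The 6 at -1 or below included expansin 2 (E011A7), with -1.72 in K59 and -1.91 in C15. An extensin-related protein (E001A11) had -3.7 in K59 and -2.75 in C15.

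Respiration and carbon metabolism gave 6 of 10 probes at 1 or above in K59, of which 2 were also at 1 or above in C15 and 4 were members, and 2 of 10 at -1 or below. ATP citrate lyase, which makes cytosolic acetyl-CoA for lipid synthesis (N104B10), had the highest ratio of any named member, 1.90 in K59 and 0.65 in C15. The ubiquinol-cytochrome C reductase of the respiratory chain (A025A12) had 1.09 in K59 and 0.42 in C15. Malate dehydrogenase (E006E2) had 1.09 and 0.26, and quinone reductase (E006H4) had 1.07 and 0.18, in K59 and C15. The β-Glc Y ratios of these 3 lay between -0.16 and 0.12 in K59 and between -0.10 and 0.03 in C15, unlike those of ATP citrate lyase, given below. A second quinone reductase clone (E017C3) was not a member, with 0.22 in K59 and 0.01 in C15, and a second malate dehydrogenase clone (N101C1) had -4.35 in K59 and -2.03 in C15. Clones with the same name therefore did not share an induction ratio, in the case of malate dehydrogenase not even its sign. The quinone reductase clones match different Arabidopsis genes, AT4G36750 and AT5G54500, so they need not be the same gene. Both malate dehydrogenase clones match AT1G79750, which the annotation also gives to clones with other names (E006G1 and E017A2).

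The protein fate lists held 5 members. Among the 7 protein folding probes, 3 were at 1 or above in K59 and 4 at -1 or below. A chaperonin (E017B4) had 1.45 in K59 and 0.14 in C15, and the clone named cpn60 chaperonin (E007B3) had 1.28 in K59 and 0.47 in C15. Chaperonins are ring-shaped complexes in which other proteins fold. Both had negative K59 β-Glc Y ratios, -0.36 and -0.50, with -0.21 and -0.17 in C15.

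Among the 13 protein turnover probes, 4 were at 1 or above in K59, 3 lay between the limits and 6 were at -1 or below. RPT5a, an ATPase of the proteasome's regulatory particle (E017E4), had 1.24 in K59 and 0.08 in C15. A RING/PHD protein (E017D8) had 1.54 in K59 and 0.12 in C15, and a RING protein (E017B3) had 1.02 and 0.24. RING fingers occur in many ubiquitin ligases, which tag proteins for the proteasome. All 3 turnover members lay below 0 with β-Glc Y, between -0.36 and -0.20 in K59 and between -0.12 and -0.05 in C15. All 3 came from plate E017, and with plate medians subtracted their induction ratios in K59 were 0.50 (RPT5a), 0.80 (RING/PHD) and 0.28 (RING), so none of them met the limit.

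Redox and defence had 12 probes with a K59 value among 15 listed, of which 3 were at 1 or above, 5 were at -1 or below, and 3 were members. An isoflavone reductase, from a family of phenolic reductases (E011H3), had 1.56 in K59 and 0.16 in C15. Polyphenol oxidase, which oxidises phenols to quinones in wounded tissue (E017A6), had 1.23 in K59 and 0.43 in C15. Stromal ascorbate peroxidase, which removes hydrogen peroxide in the chloroplast (E006G11), had 1.05 in K59 and 0.29 in C15. None of these had a β-Glc Y ratio outside -0.32 to 0.25 in K59 or -0.17 to -0.04 in C15.

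Other metabolism had 2 members of 11 probes and 7 probes at -1 or below in K59, and transport had 2 members of 10 probes and 5 at -1 or below. ILV5, the reductoisomerase of branched-chain amino acid synthesis (E016F3), was the single named member below 0 in C15, at -0.37 against 1.36 in K59. Acyl-CoA oxidase, which opens peroxisomal fatty acid breakdown (E009B5), had 1.31 in K59 and 0.60 in C15. ZIP4, a zinc transporter family member (E016G6), had 1.31 in K59 and 0.78 in C15, the highest C15 ratio among the named members. The glycerol-3-phosphate transporter (E006E10) had 1.06 in K59 and 0.46 in C15. The β-Glc Y ratios of these 4 members lay between 0.00 and 0.21 in K59 and between -0.11 and 0.27 in C15.

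In the lists with no member, most probes lay at -1 or below in K59. Of the 14 ribosome and translation probes, 13 were at -1 or below in K59, with a list median of -2.05 in K59 and -0.62 in C15. Of the 7 RNA processing probes, 4 were at -1 or below in K59, and a DEAH helicase (E006F5) and a PPR protein (E017C1) stayed just under the K59 limit at 0.95 and 0.89. The RNA helicase N102G9 of that list, with 1.37 in K59 and 0.31 in C15, met both limits and is no member because the rule set it aside.

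The 99 members without a name include those with the largest ratios. E011D8 had 5.22 in K59, a 37.3-fold ratio, and 0.24 in C15. It had no K59 β-Glc Y value and no d0 value, and its C15 Y+ vs. Y- ratio was -0.26. The next in K59 were E016C1 at 3.03 (C15 0.37), E017B7 at 2.76 (C15 0.75), E002A5 at 2.65 (C15 0.42) and E016A3 at 2.61 (C15 0.35). E011D8 therefore lay more than 2 log2 units above every other member. At the low edge, A025C7, E002A2, E003A7, E006A7, E008H4, E011D9 and E017A5 were at exactly 1 in K59, and just outside it E007F9, E007H1 and E009D11 were at 0.99.

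In C15 the members nearest the upper limit were E011A3 at 0.78 (K59 2.16), ZIP4 at 0.78, E017B7 at 0.75, and E002B1 and E015E7 at 0.74 (K59 1.08 and 1.09). Just beyond that limit were N102G5 at 1 in C15 (K59 1.15), E002G12 at 1.07 (K59 1.61) and E013E8 at 1.09 (K59 1.21). L-lactate dehydrogenase (E017E2) and a voltage-dependent anion channel (E010D10) were higher still in both genotypes, with 2.03 and 1.78 in K59 and 1.14 and 1.16 in C15. At the lower limit, E009A9 had 1.23 in K59 and -0.99 in C15, E010D7 had 1.93 and -0.94, and E007E8 had 1.75 and -0.92. The arabinogalactan-protein probe E005B11 lay beyond that limit, with 1.55 in K59 and -1.43 in C15, and is not a member.

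The β-Glc Y comparisons were not used to choose members, although their Y- explants are the same condition as the d4 side of induction. Of all probes with a value, 0.583% were at 1 or above and 2.0% at -1 or below in K59 Y+ vs. Y-, and 1.03% and 3.81% in C15 Y+ vs. Y-. Among the members, 0 of 128 were at 1 or above and 1 at -1 or below in K59, and 0 of 129 and 6 in C15. These shares are close to the background. The median of the members was -0.04 in K59 and -0.05 in C15, against 0.02 and 0.00 in the other probes with both induction values. Within 0.5 of 0 lay 90.6% of members in K59 and 92.2% in C15, against 87.2% of the other probes in each genotype.

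In 5 members the ratio was at or below -0.75 in both genotypes, which is 3.91% of the 128 members with both values, against 5.17% of all probes. The nuclear receptor E002E12 had -0.93 in K59 and -1.62 in C15. ATP citrate lyase (N104B10) had -0.91 in K59 and -1.39 in C15, and the mucin-like E012B9 had -0.89 and -1.36. The unnamed E002C11 had -1.11 in K59 and -1.54 in C15, and E016E9 had -0.85 and -1.30. All 5 were lower in C15 than in K59, as were 48 of the 54 probes of the array that were this low in both genotypes. Each of the 5 had been induced in K59 by between 1.13 and 1.90 and in C15 by between 0.28 and 0.65. Their d0 ratios lay between -0.07 and 0.30. A sixth probe, E016C1, passed -1 in C15 alone at -1.03 and had -0.44 in K59.

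Apart from these 6, the members formed a cloud around 0. Leaving out the 5 low in both genotypes, the lowest K59 value was that of salt tolerance protein 5 at -0.67. On the positive side, probes chosen after their values were seen were E016A6, with 0.93 in K59 and 0.96 in C15, A025G1, with 0.77 and -0.05, and E005F5, with 0.61 and 0.33. Of the 128 members, 61 lay below 0 in both genotypes, 34 above 0 in both, and 84 within 0.25 of 0 in both. Across the 128 members the K59 and C15 β-Glc Y ratios correlated with r = 0.78 and rho = 0.62, and without the 5 low members with r = 0.63 and rho = 0.57 (n = 123). Among the other probes r was 0.84 and rho 0.69 (n = 608). These correlations are across probes, which are not replicates and share arrays and normalization.

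**Figure D3:**
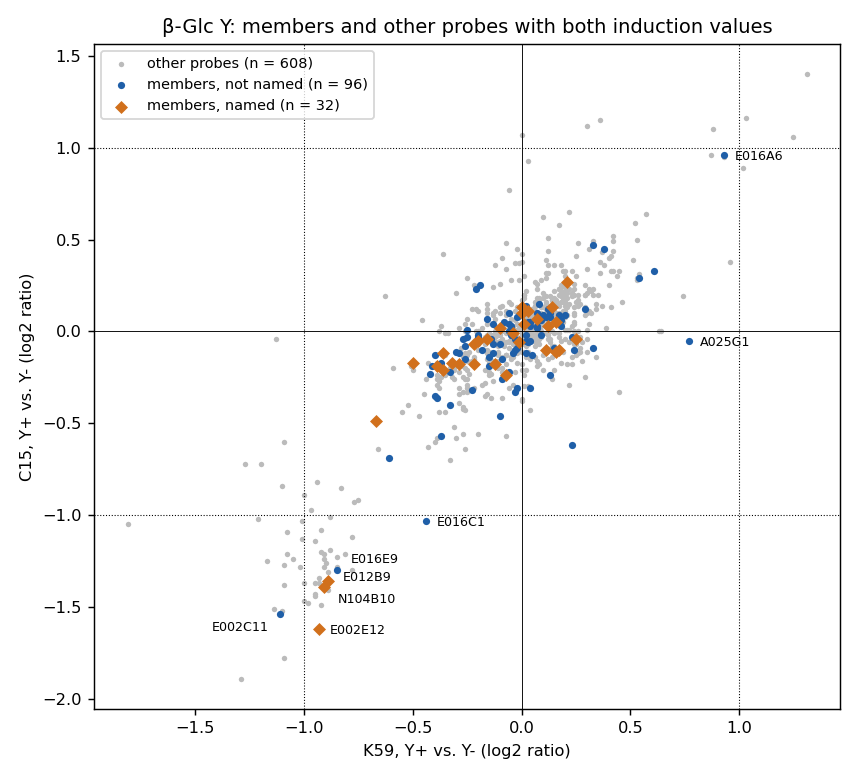
Log2 ratio in C15 Y+ vs. Y- (y axis) against log2 ratio in K59 Y+ vs. Y- (x axis) for members (blue and orange) and other probes with both induction values (grey), with dotted lines at 1 and -1. The 5 members E002C11, E002E12, N104B10, E012B9 and E016E9 lie at or below -0.85 in K59 and -1.30 in C15, apart from the cloud around 0.

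K59 and C15 were also compared directly before culture. This comparison was not used to choose members, but its uncultured explants are the same conditions as the d0 sides of induction. Its ratios among members are therefore not independent of the choice. The direction of that comparison is not settled, so each sign is given as labelled (K59 over C15) and may run the other way. A d0 value existed for 66 of the 131 members (50.4%), against 61.8% of the other probes with both induction values. Of all probes with a d0 value, 6.71% were at 1 or above and 1.42% at -1 or below. Among the 66 members, 0 were at 1 or above and 2 were at -1 or below, and the median was 0.00. The 2 were E004B8 at -1.44 (1.01 in K59 and 0.24 in C15 after induction) and E011E2 at -1.09 (1.22 and 0.55). With the sign turned they are at 1.44 and 1.09. Neither has a name, and their β-Glc Y ratios were 0.33 and -0.06 in K59 and 0.47 and 0.10 in C15.

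Named and unnamed members differed in what was recorded at d0. All 32 named members had a d0 value, and 12 of these were exactly 0.00, whereas 34 of the 99 unnamed members had one and none was exactly 0. With the labelled sign, the unnamed members with a d0 value had a median of -0.08, with 24 below 0 and 10 above, and the named ones 6 below 0 and 14 above. With the sign turned, 24 unnamed members lay above 0 and 10 below, and 6 named ones above and 14 below. The named members farthest from 0 had labelled ratios of 0.56 (cpn60), 0.51 (ubiquinol-cytochrome C reductase) and 0.47 (ZOG1), and stromal ascorbate peroxidase was farthest on the opposite side at -0.23. These are -0.56, -0.51, -0.47 and 0.23 with the sign turned. Polyphenol oxidase and the glycerol-3-phosphate transporter had 0.42, malate dehydrogenase 0.41, kinesin 10 0.39 and the FH protein 0.36, all negative if the sign is turned. The 12 at exactly 0.00 were prohibitin, the glycine-rich, mucin-related and polygalacturonase probes, ILV5, the chaperonin E017B4, the RING/PHD protein, RPT5a, isoflavone reductase, EMB1374, NAM 1 and ZIP4. Whether these are measured zeros is not given in the sources used here. The 65 members without a d0 value had the larger induction, with a K59 median of 1.70, against 1.22 in the 66 with one. Of the 20 highest members in K59, 2 had a d0 value. Whether the missing values follow from weak signal was not tested, since spot intensities were not analysed here.

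Adding the d0 ratio to the induction gap gives a chained estimate of the distance between the genotypes at d4. The gap is made of the ratios that chose the members, so a positive gap was fixed by the rule. The counts below are a description and test nothing. By the induction gap alone, 28 of the 66 members differed by at least 1, and with the labelled d0 sign added 32 did, with a median of 0.97. With that sign turned the number was again 32, with a median of 0.99. The 66 include the 12 members with a d0 ratio of exactly 0.00, whose chained value equals the gap under either sign. All of these but ZIP4 (0.53) had a gap of at least 1, and whether their zeros were measured is not known. Equal totals do not mean the same probes, and in 4 members the unsettled sign decides which genotype was higher at d4. The chained value, with the labelled sign and with it turned, was -0.67 and 2.21 for E004B8, -0.42 and 1.76 for E011E2, -0.44 and 1.48 for E015D7, and -0.12 and 1.32 for E002E1.

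**Figure D4:**
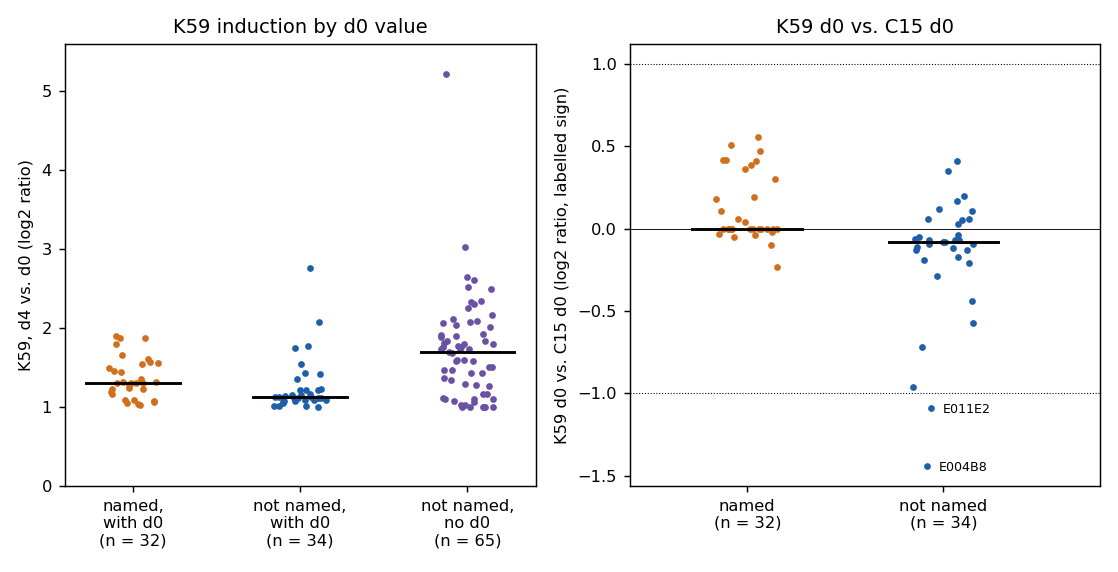
Left, log2 ratio in K59 d4 vs. d0 for named members with a d0 value, unnamed members with one and unnamed members without one, with bars at the medians of 1.31, 1.13 and 1.70. Right, log2 ratio in K59 d0 vs. C15 d0 with its labelled sign for the 66 members with a value, with E004B8 and E011E2 below -1.

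Members were spread unevenly over the 22 plates that the clone names give, and 20 plates held at least 1. Plate E011 had 15 members among 52 probes with both induction values (28.8%), E012 had 12 of 44 (27.3%), E002 had 10 of 37 and E017 had 21 of 82 (25.6%). Plate E014 had 1 of 33 (3.03%), and E013 (28 probes) and N102 (27 probes) had none. The 5 plates with most members held 55.7% of them and 36.6% of the probes. Plates also differed in their median K59 ratio over all such probes, from -1.41 in N104 to 0.74 in E017, and E011 and E012 had 0.55 and 0.53. Whether clones of a plate share a source or a place on the slide is not given in the sources used here. The part of either in these shares was not tested. When the median of each plate was subtracted from both comparisons, 116 probes met the rule, 74 of the 131 members among them. Of the 32 named members 14 still met it. Those that did not were MCM3, kinesin 10, prohibitin, the mucin-like protein, both chaperonins, the protein turnover members, stromal ascorbate peroxidase and polyphenol oxidase. Malate dehydrogenase, quinone reductase, the glycerol-3-phosphate transporter, NAM 1, the nodule inception protein, EMB1374 and the FH protein did not either. The members' median K59 ratio was then 1.08, and the lowest 0.26.

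**Figure D5:**
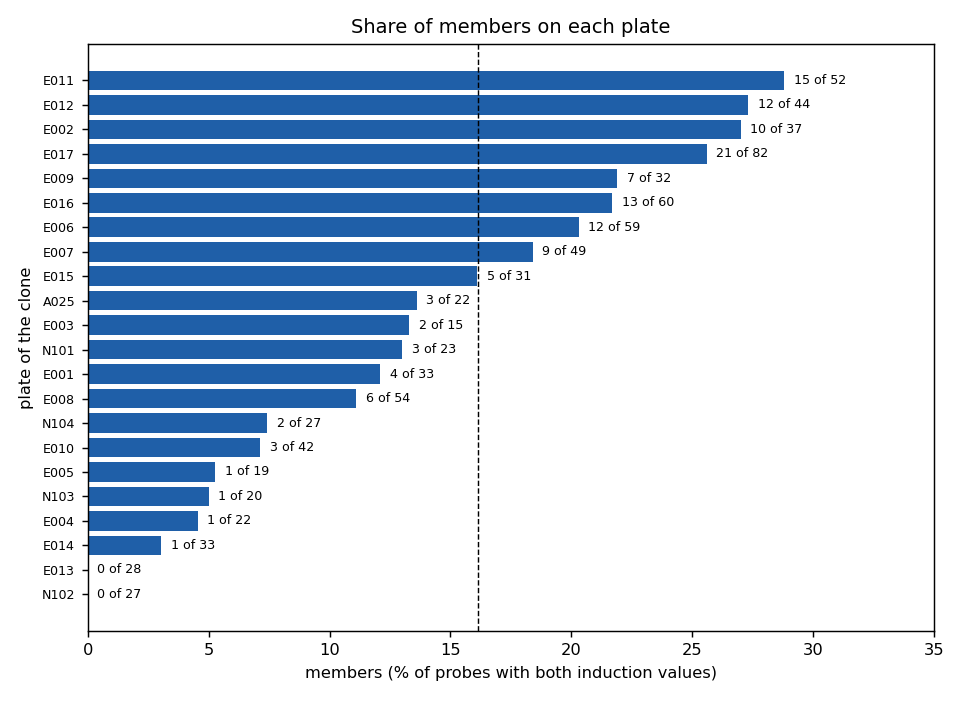
Share of the probes with both induction values on each plate that were members (x axis, %), with counts beside the bars and a dashed line at the 16.2% of all plates together. Shares run from 28.8% on E011 to 0 on E013 and N102.

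The 6 probes set aside by the rule had K59 ratios between 1 and 1.54 and C15 ratios between 0.24 and 0.51, within the range of the members. With β-Glc Y, 4 of them were at or below -0.75 in both genotypes. RPT6, another ATPase of the proteasome's regulatory particle (E001E6), had -1.29 in K59 and -1.89 in C15, amino acid permease 6 (E002B7) had -1.14 and -1.51, an RNA helicase (N102G9) had -1.02 and -1.28, and remorin, a plasma membrane protein (N104B1), had -0.95 and -1.43. The peptidylprolyl isomerase (E009E8) had 0.05 and 0.08, and the histone acetyltransferase HAT B (E013B9) 0.11 and 0.16. RPT6 and the member RPT5a had like induction ratios as deposited, 1.23 and 1.24 in K59, with β-Glc Y ratios in K59 of -1.29 and -0.20. Their plates had unlike K59 medians over probes with both induction values, -0.45 on E001 and 0.74 on E017. With plate medians subtracted RPT5a was at 0.50, so the likeness holds only without that subtraction. With these 6 included, 16.9% of the 811 probes met both limits. In addition, 347 probes had a C15 ratio within the limits but no K59 value, and could not be assigned.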

How the data were processed

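Chicory cDNA clones spotted on 2-colour arrays were hybridized with Cy3- and Cy5-labelled RNA. Spots were read with GenePix Pro 6.0 (submitters' processing notes and methods). The authors discarded spots that were artefacts, saturated or weak, subtracted background, normalized each slide by global lowess and print-tip medians, and dropped probes that behaved oppositely in the dye swap. The deposited values are log2 ratios, 1 per probe and comparison, and how hybridizations were combined is not given in the sources used here. All 5 columns were matched to a sample (0 unmatched). The authors' filters for significance need single hybridizations and were not repeated.

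Members were picked by the rule, counted at log2 ratios of 1 and -1, and set beside all probes with a value. The counting recovered 100 of 100 probes planted at the limit in simulated ratios. That outcome was fixed by the rule, so it checks the code and not the data. The members and lists were chosen with earlier results of these data known. Named were all members in the study's clone annotation, the 5 highest and 5 lowest of the others in K59, the 3 highest and 3 lowest in C15, those past 1 or -1 in another comparison, and the 3 probes just outside each limit. Other names were chosen after values were seen. Alternatives were thresholds of 0.95 and 1.5, median and plate-median subtraction, all 5 values present, C15 within 0.5, a gap of at least 1, and named probes alone. Clone sequences were not used here. Python 3.11.15, numpy 2.4.6, pandas 2.3.3 and matplotlib 3.10.9 were used.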

Additional observations from a re-analysis of the deposited data

Results flagged for a closer look

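In 4 unnamed members the C15 ratio after induction was clearly negative while the K59 ratio was positive, both by at least 0.5. E010D7 had 1.93 in K59 and -0.94 in C15, E007E8 had 1.75 and -0.92, E009A9 had 1.23 and -0.99, and E009F8 had 1.05 and -0.81. The difference between the genotypes was not tested, since each is 1 value. With β-Glc Y all 4 lay between -0.03 and 0.02 in K59 and between -0.33 and 0.08 in C15. The d0 ratio, with its labelled sign, was 0.41 for E009F8, 0.17 for E007E8 and 0.12 for E009A9.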

How the results depend on the processing

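No paired analysis was possible because 1 value per probe and comparison exists and the labels carry no replicate numbers. Leaving out replicates could not be run for the same reason. The number of members, 131, became 60 at a threshold of 1.5, 66 with all 5 values present, 81 with a gap of at least 1, and 32 among named probes alone. The K59 median of 1.35 became 1.81, 1.22 and 1.7 under the first 3 of these. The threshold of 1.5 applied to C15 as well, so its 60 probes were 55 of the members and 5 others. Among the others were the arabinogalactan-protein probe E005B11, L-lactate dehydrogenase and the voltage-dependent anion channel. At 1.5 the single probe past the threshold with β-Glc Y in K59 was E005B11 at -1.81, which is not a member. Of the members 101 met the rule after median subtraction and 130 at a threshold of 0.95, but 74 after plate-median subtraction, which added 42 others. The number of named members, 32, became 13 at 1.5, 16 after plate-median subtraction and 16 with the gap. Members past the threshold with β-Glc Y became 0 in K59 with the gap and among named probes (1 before). In C15 they became 0 at 1.5, and 3 with the gap and among named probes (6 before). At d0 the 2 became 1 after median subtraction, after plate-median subtraction and with C15 within 0.5, and 0 at 1.5, with the gap and among named probes. The other 59 of these summary counts and medians stayed within 1.5 times or 0.1 of those reported. Counts by function and for plate E017 moved by more in 29 of 80 cases. After plate-median subtraction plate E017 had 6 members (21 before), protein folding 0 (2) and signalling 3 (7). Redox and defence then had 1 (3), respiration 2 (4) and transport 1 (2). Cell cycle and chromatin then had 2 (5), without MCM3, kinesin 10 and prohibitin. Protein turnover then had 2, neither of them among its 3 members before. The cell cycle list also had 2 with C15 within 0.5 and 2 with the gap. Respiration had 1 (4) after median subtraction, and transport, folding and other metabolism each 0 (2) at 1.5. Signal over background was not analysed here, so how it limits single probes is unknown.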
